A study of Mus musculus with 12 samples.

Results

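The 33 genes described here encode the enzymes of cholesterol and fatty acid synthesis in the mouse, the SREBP transcription factors and the proteins that control them, and a pair of genes of sterol transfer and receptor turnover. They were taken by name and are 33 of the 55484 genes in the deposited expression table. By step they comprise 8 genes of the mevalonate part of the pathway, 11 of squalene and sterol formation, 5 regulators of SREBP, 2 of sterol transfer and receptor turnover, and 7 of fatty acid synthesis. RNA of mouse small intestine was sequenced in 12 libraries, 3 in each of 4 groups. Control is labelled as wild type. Melphalan received the alkylating chemotherapy drug of that name, a DNA crosslinker that harms fast-renewing tissue such as the gut lining. Mel+MSC and MSC+Mel received both melphalan and mesenchymal stem cells of human umbilical cord, named in opposite orders. The labels state no dose, no time of collection, no age or strain of the mice and no region of the intestine. What the order of the names stands for is not stated, and there was no group with stem cells alone. They do not say whether the libraries of a group come from separate mice, so each p-value rests on library-to-library spread that could be technical.

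Cells make cholesterol from acetyl-CoA through mevalonate, isoprenoid units, squalene and lanosterol. When sterols in the endoplasmic reticulum run low, the escort protein SCAP carries SREBP to the Golgi, where it is cut and released to the nucleus, and when sterols are plentiful the INSIG proteins hold SCAP and SREBP back. SREBP-2 acts mainly on genes of cholesterol synthesis and uptake, SREBP-1c mainly on genes of fatty acid synthesis. Much of this control acts on the protein, which RNA levels do not show. In the small intestine the dividing cells of the crypts are known to be a main site of sterol synthesis, and the enterocytes of the villi take up dietary cholesterol and fat.

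Promoter windows from RefSeq on GRCm38.p6, 250 bases before to 50 bases after a start site, were at hand for 28 of the 33 genes. Scd2, Stard4, Sqle, Fdps and Fdft1 had none in that table. The 28 genes had 37 windows, as some have more than 1 start site. The letters of 4 motifs were searched on both strands. A gene was counted where any of its windows held the motif, among the 28 and among all tested genes alike. The CCAAT box (CCAAT), the letters bound by the factor NF-Y, which acts with SREBP at sterol genes, was present in 24 of the 28 (85.7%), against 43.1% of the 9645 tested genes with a window. The GC box (GGGCGG), read by Sp1, was present in 23 (82.1%, against 67.9%) and the E-box (CACGTG) in 5 (17.9%, against 11.6%). The core of the sterol response element (TCACNCCAC) was matched exactly in 1 window, that of Hmgcs1 (3.57%, against 1.31%). With 1 mismatch allowed, a search added after the exact one had been read, it was matched in 12 (42.9%, against 29.0%). A match describes the letters in the window and no binding was measured. The 180 bases before the start site are shown for Hmgcs1, as the one window with an exact sterol element core, and for the 5 genes with a window that rose in MSC+Mel against Melphalan. They run 5′ to 3′ along the gene, with capitals for CCAAT boxes on either strand (ATTGG on the printed strand where the box lies on the other) and for the sterol element core.
Hmgcs1, chr13:119690171-119690350, plus strand: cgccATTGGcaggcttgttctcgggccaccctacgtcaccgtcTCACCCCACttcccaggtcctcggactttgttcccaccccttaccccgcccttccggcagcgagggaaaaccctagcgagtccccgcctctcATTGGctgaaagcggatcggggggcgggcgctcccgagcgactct
Acat2, chr17:12960726-12960905, minus strand: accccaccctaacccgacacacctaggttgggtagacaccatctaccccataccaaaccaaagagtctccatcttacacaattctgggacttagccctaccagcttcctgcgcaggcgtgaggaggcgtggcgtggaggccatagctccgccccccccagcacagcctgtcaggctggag
Idi1, chr13:8885426-8885605, plus strand: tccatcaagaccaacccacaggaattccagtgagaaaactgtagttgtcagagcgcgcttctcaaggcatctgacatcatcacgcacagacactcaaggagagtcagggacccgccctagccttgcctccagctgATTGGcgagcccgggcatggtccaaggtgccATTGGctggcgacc
Lss, chr10:76531425-76531604, plus strand: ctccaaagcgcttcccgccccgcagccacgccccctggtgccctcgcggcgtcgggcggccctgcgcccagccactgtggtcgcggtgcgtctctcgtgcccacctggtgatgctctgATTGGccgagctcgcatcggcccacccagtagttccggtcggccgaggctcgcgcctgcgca
Fasn, chr11:120824548-120824727, minus strand: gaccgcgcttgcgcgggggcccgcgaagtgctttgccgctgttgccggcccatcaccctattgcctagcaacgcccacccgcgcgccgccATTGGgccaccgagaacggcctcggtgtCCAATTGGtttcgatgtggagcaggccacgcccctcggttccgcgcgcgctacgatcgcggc
Acss2, chr2:155517863-155518042, plus strand: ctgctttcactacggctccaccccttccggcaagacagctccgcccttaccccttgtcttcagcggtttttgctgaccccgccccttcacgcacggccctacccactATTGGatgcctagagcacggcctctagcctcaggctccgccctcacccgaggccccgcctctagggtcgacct
The Hmgcs1 stretch holds 2 CCAAT boxes and the core TCACCCCAC between them. The stretches of Idi1 and Fasn hold 2 and 3 CCAAT boxes, those of Lss and Acss2 hold 1 each, and that of Acat2 holds none. The start sites used are those of RefSeq. In GENCODE M21, Idi1 begins at 8885501, Acss2 at 155517948, Lss at 76531588 and Acat2 at 12960747, inside the printed stretches. Part of each of these stretches therefore lies within the gene in that annotation.

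Values are FPKM as deposited, fragments counted on a gene relative to its transcript length and to the size of the library. All 33 genes reached 1 FPKM in at least 3 libraries, the filter that 12847 genes passed. Changes are differences of log2(FPKM + 1), fitted with limma over all 12 libraries, and a gene is called where its p, adjusted over the 12847 genes of a comparison by the Benjamini-Hochberg method, is under 0.05. Summed FPKM ran from 516851 to 796980 per library. Read totals are not given, so the depth behind a value is unknown. Within groups, Spearman correlations between libraries were 0.829 to 0.933 in Melphalan, 0.907 to 0.957 in Mel+MSC, 0.943 to 0.957 in Control and 0.972 to 0.981 in MSC+Mel. The 12 enterocyte markers summed to between 13104 and 71586 FPKM in every library, with none at 0. Melphalan 1 carried the highest adipocyte markers (7 genes, 397.8 FPKM summed, against 53.9 to 129 in the other 11 libraries) and Melphalan 2 the highest immune cell markers (9 genes, 836 FPKM, against 25.2 to 158). In bulk tissue, fewer cells of a type and less RNA per cell cannot be told apart.

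Taken over the 4 groups, the genes of sterol and fatty acid synthesis stood highest in MSC+Mel and lowest in Melphalan. The highest group mean was in MSC+Mel for 22 of the 33 genes, in Mel+MSC for 7, in Melphalan for 3 and in Control for 1. The lowest was in Melphalan for 20, in Control for 10, in MSC+Mel for 2 and in Mel+MSC for 1. The order of the groups was not counted over all genes. The mean log2(FPKM + 1) of the 33 genes was 3.92, 3.66 and 3.63 in the Control libraries, 3.51, 3.56 and 3.65 in Melphalan, 3.70, 4.08 and 4.12 in Mel+MSC, and 4.42, 4.21 and 4.30 in MSC+Mel. The 3 MSC+Mel libraries lay above the other 9, and Mel+MSC 1 lay below the other libraries of its group. The Melphalan and Control libraries overlapped.

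**Figure D1:**
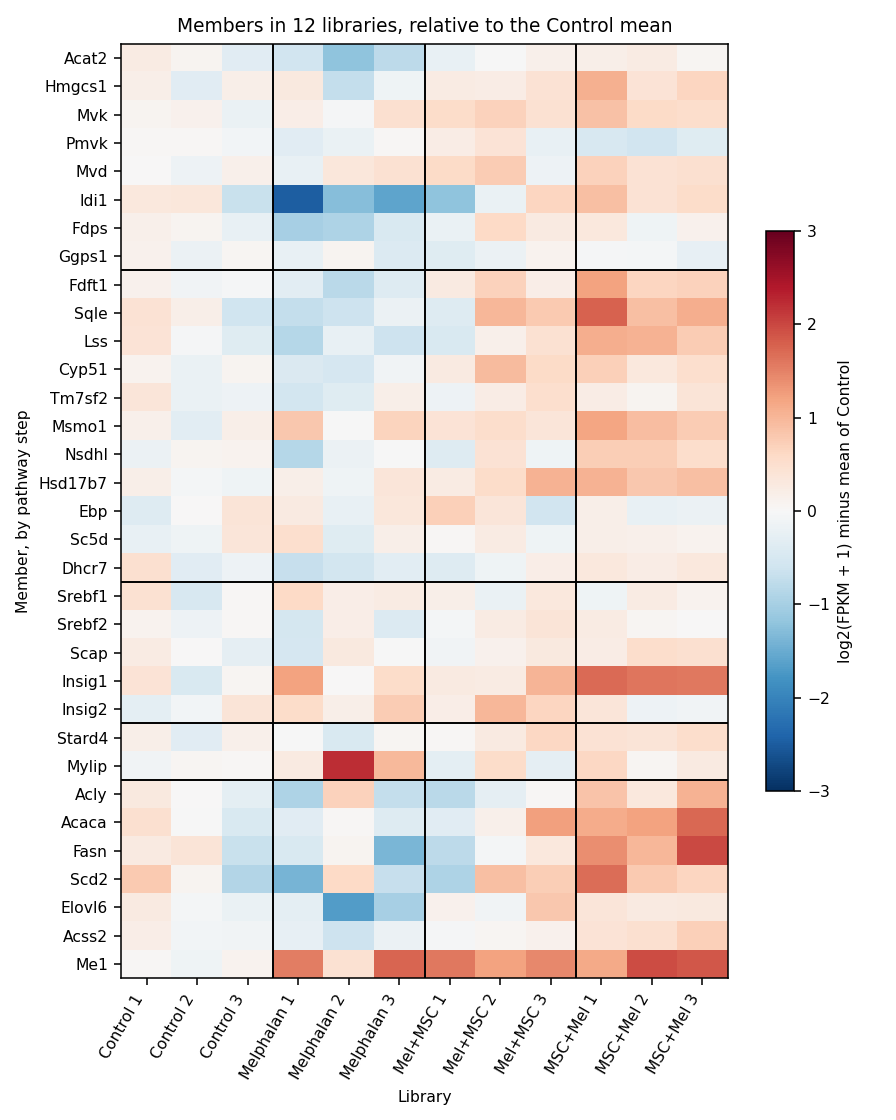
Level of the 33 genes in 12 libraries as log2(FPKM + 1) minus the mean of the 3 Control libraries, with genes grouped by pathway step (horizontal lines) and libraries by group (vertical lines). Most rows of the mevalonate, sterol and fatty acid blocks are red in MSC+Mel, Idi1 is bluest in Melphalan 1, and Me1 is red in all 9 libraries that received melphalan.

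MSC+Mel was set against Melphalan to ask how the sterol and fatty acid genes stood after the drug with and without stem cells. Of the 33 genes, 6 rose and none fell: Acat2 and Idi1 of the mevalonate steps, Fdft1 and Lss of the sterol steps, and Fasn and Acss2 of fatty acid synthesis. Over all genes tested, 1.24% were called in this comparison and 0.817% were called higher. At an unadjusted p under 0.05 stood 20 of the 33 (60.6%), all higher in MSC+Mel, against 22.2% of all genes in either direction. The median log2 change was 0.81 over the 33 genes and -0.05 over all genes. In 19 of the 33 every MSC+Mel library lay above every Melphalan library, as it did in 16.3% of all genes, and in 1 (Pmvk) every one lay below. The Melphalan means of the 6 ran from 1.13 FPKM (Lss) to 7.82 FPKM (Idi1). The count of 6 rests on every library of both groups except Melphalan 2: it was 0 without MSC+Mel 1, 2 or 3, 0 without Melphalan 1 or Melphalan 3, and 6 without Melphalan 2, with Acly in the place of Acat2. It also moved with libraries of the other groups through the shared spread, to 14 without Mel+MSC 3, to 2 without Control 1, and to 1 without Mel+MSC 2 or Control 2. With no filter on low values it was 1, Fdft1.

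Acat2, the cytosolic thiolase that joins acetyl-CoA at the head of the sterol pathway, measured 11.5, 10.1 and 7.36 FPKM in the Control libraries, 6.08, 3.53 and 5.12 in Melphalan, 7.93, 9.47 and 10.7 in Mel+MSC and 10.8, 11.4 and 9.88 in MSC+Mel. All 3 Melphalan libraries lay below the other 9. It rose in MSC+Mel against Melphalan by 1.01 (SE 0.21, adjusted p = 0.0463), and the comparison of Melphalan with Control gave -0.85 (SE 0.21, adjusted p = 0.0760), which was not called. Its close copy Acat3 was at 0.357 FPKM or less in every library.

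Idi1, the isomerase of the isoprenoid units, had the largest log2 change of the 33 genes in this comparison. It stood at 34.8, 35.3 and 17.1 FPKM in Control, 4.14, 10.8 and 8.52 in Melphalan, 11.4, 24.1 and 43.5 in Mel+MSC and 52.9, 38.02 and 40.7 in MSC+Mel. The 3 Melphalan libraries lay below the other 9, with Mel+MSC 1 just above the highest of them. It rose in MSC+Mel against Melphalan by 2.42 (SE 0.45, adjusted p = 0.0345). The change of Melphalan against Control was -1.78 (SE 0.45, adjusted p = 0.0798) and was not called. It was called without Control 3, without Mel+MSC 3 and with libraries weighted by either of 2 estimators, which called 3543 and 1520 of all genes.

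Fdft1, squalene synthase, the first enzyme given over to sterols, stood at 9.54, 7.92 and 8.31 FPKM in Control, 6.63, 4.46 and 6.31 in Melphalan, 10.6, 14.5 and 9.903 in Mel+MSC and 20.97, 13.97 and 14.4 in MSC+Mel. Melphalan lay wholly below each of the other groups, and both stem cell groups lay wholly above Control. It rose in MSC+Mel against Melphalan by 1.35 (SE 0.21, adjusted p = 0.0244), the smallest adjusted p among the 33 genes. Exons of Fdft1 overlap those of the cathepsin gene Ctsb on the other strand, and the strand setting of the counting is not given, so reads of the 2 genes may have been mixed. Ctsb stood at 188, 206 and 237 FPKM in Melphalan and 216, 258 and 231 FPKM in MSC+Mel, a log2 change of 0.16 (adjusted p = 0.614).

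Lss, the cyclase that closes the rings of lanosterol, was the lowest of the called genes. It stood at 3.11, 2.02 and 1.41 FPKM in Control, 0.703, 1.68 and 1.02 in Melphalan, 1.26, 2.47 and 3.27 in Mel+MSC and 5.64, 5.41 and 4.25 in MSC+Mel. The MSC+Mel libraries lay above the other 9. It rose in MSC+Mel against Melphalan by 1.53 (SE 0.28, adjusted p = 0.0338).

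Fasn, fatty acid synthase, stood at 13.02, 14.2 and 6.38 FPKM in Control, 7.42, 11.4 and 3.48 in Melphalan, 5.78, 10.3 and 13.5 in Mel+MSC and 29.6, 22.03 and 45.02 in MSC+Mel. The MSC+Mel libraries lay above the other 9, with the highest value in MSC+Mel 3, where the adipocyte markers were also highest of its group (129 FPKM summed, against 78.5 and 115). It rose in MSC+Mel against Melphalan by 2.04 (SE 0.43, adjusted p = 0.0466). Adipocytes express Fasn, and in Melphalan 1, where their markers were 397.8 FPKM, it stood at 7.42 FPKM. The part of adipocyte RNA in the Fasn result was not tested.

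Acss2, which makes acetyl-CoA from acetate, stood at 9.73, 7.700 and 7.57 FPKM in Control, 6.87, 5.03 and 7.15 in Melphalan, 8.09, 8.72 and 9.205 in Mel+MSC and 11.2, 11.99 and 14.3 in MSC+Mel. The order of the group ranges was Melphalan lowest and MSC+Mel highest, with no overlap of either with another group. It rose in MSC+Mel against Melphalan by 0.88 (SE 0.17, adjusted p = 0.0380). Its exons overlap those of Gss on the other strand, which measured 70.7, 37.1 and 83.4 FPKM in Melphalan against 39.7, 41.2 and 43.4 FPKM in MSC+Mel (adjusted p = 0.307).

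**Figure D2:**
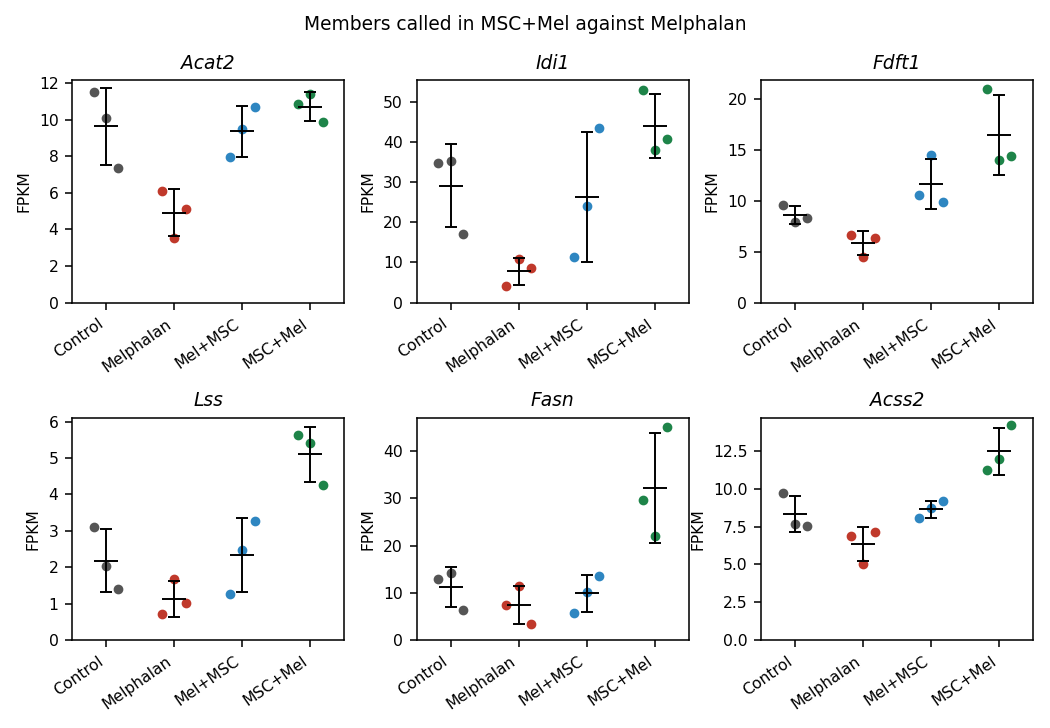
FPKM of the 6 genes called in MSC+Mel against Melphalan, by group; each point is 1 library and the bar gives the mean and SD of 3. All 3 MSC+Mel points lie above all 3 Melphalan points in each panel, and Acat2 in MSC+Mel lies at the level of Control.

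Around these 6 genes, the other steps differed in how far they moved. In the mevalonate block, Hmgcs1, the HMG-CoA synthase whose promoter holds the sterol element core printed above, stood at 47.8, 32.99 and 47.5 FPKM in Control, 52.3, 25.4 and 38.8 in Melphalan, 50.2, 49.2 and 57.1 in Mel+MSC and 89.3, 56.1 and 66.3 in MSC+Mel. The MSC+Mel libraries lay above all of Melphalan and Control, by a log2 difference from Melphalan of 0.88 (95% interval 0.29 to 1.47, adjusted p = 0.106). Fdps, which makes farnesyl diphosphate, stood at 43.5, 41.5 and 33.4 FPKM in Control, 19.1, 20.3 and 28.3 in Melphalan, 33.97, 59.8 and 47.7 in Mel+MSC and 49.2, 35.7 and 43.2 in MSC+Mel. All 3 Melphalan libraries lay below the other 9, with a difference of MSC+Mel from Melphalan of 0.90 (95% interval 0.38 to 1.41, adjusted p = 0.0797).

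The kinases and the decarboxylase between them showed smaller and mixed differences. Mvk, mevalonate kinase, stood at 5.42, 5.55 and 4.22 FPKM in Control, 5.97, 4.87 and 7.42 in Melphalan, 7.899, 8.82 and 7.33 in Mel+MSC and 10.1, 8.001 and 7.68 in MSC+Mel. Both stem cell groups lay above Control without overlap. Pmvk, phosphomevalonate kinase, stood at 7.56, 7.57 and 6.89 FPKM in Control, 5.61, 6.26 and 7.58 in Melphalan, 8.702, 10.1 and 6.195 in Mel+MSC and 4.97, 4.61 and 5.45 in MSC+Mel. It ran against the rest of the block, with MSC+Mel below each of the other groups and a log2 difference from Mel+MSC of -0.61 (95% interval -1.02 to -0.21, adjusted p = 0.296). Mvd, the decarboxylase, averaged 5.25 ± 0.663 FPKM in Control and 8.02 ± 0.915 in MSC+Mel (SD, n = 3), with 6.24 ± 1.67 in Melphalan and 7.497 ± 2.55 in Mel+MSC. Ggps1, which feeds the branch to protein prenylation rather than sterols, stayed between 9.999 and 11.4 FPKM in all group means, and the interval of its MSC+Mel difference from Melphalan was -0.33 to 0.47 on the log2 scale.

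In the sterol block, the median log2 change of the 11 genes in MSC+Mel against Melphalan was 0.81. Sqle, squalene epoxidase, a rate-limiting oxygenase of the pathway, stood at 13.4, 11.1 and 6.03 FPKM in Control, 5.48, 6.001 and 8.46 in Melphalan, 7.22, 20.5 and 17.5 in Mel+MSC and 35.5, 18.9 and 21.8 in MSC+Mel. MSC+Mel lay above Control and Melphalan without overlap, and Mel+MSC 1 stood within the Melphalan range. Its difference from Melphalan was 1.76 (95% interval 0.91 to 2.61, adjusted p = 0.0526), just outside the threshold, and it was called, among other alternatives, with quantile normalization and in a fit on the 6 libraries compared. Cyp51, the lanosterol demethylase, stood at 14.5, 11.5 and 14.2 FPKM in Control, 9.54, 9.14 and 12.4 in Melphalan, 16.2, 26.4 and 20.4 in Mel+MSC and 22.4, 16.8 and 19.3 in MSC+Mel. Both stem cell groups lay above Control and Melphalan, with a difference of MSC+Mel from Melphalan of 0.85 (95% interval 0.40 to 1.31, adjusted p = 0.0665).

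Hsd17b7, a ketoreductase of the demethylation complex, stood at 5.16, 4.24 and 3.96 FPKM in Control, 5.09, 3.94 and 5.97 in Melphalan, 5.47, 6.999 and 10.2 in Mel+MSC and 10.1, 8.52 and 9.13 in MSC+Mel. Its difference of MSC+Mel from Control was 0.92 (95% interval 0.44 to 1.39, adjusted p = 0.158). Its partner dehydrogenase Nsdhl averaged 9.605 ± 0.891 FPKM in MSC+Mel against 4.401 ± 1.496 in Melphalan, a log2 difference of 1.01 (95% interval 0.46 to 1.57, adjusted p = 0.0708), with no overlap between MSC+Mel and any other group. The methyl oxidase Msmo1 stood among the highest of the sterol block, at 67.5 ± 10.5 FPKM in MSC+Mel against 34.5 ± 6.53 in Control, 49.5 ± 13.9 in Melphalan and 46.7 ± 2.87 in Mel+MSC. Dhcr7, the reductase of the last step of one branch to cholesterol, averaged 19.2 ± 6.28, 12.7 ± 1.74, 17.5 ± 3.74 and 22.9 ± 0.948 FPKM in Control, Melphalan, Mel+MSC and MSC+Mel.

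For some enzymes of the same block the group means lay closer together. The isomerase Ebp averaged 30.7, 33.3, 35.98 and 28.6 FPKM in Control, Melphalan, Mel+MSC and MSC+Mel, and the desaturase Sc5d 58.7, 64.3, 60.1 and 63.98 FPKM. The intervals of their MSC+Mel differences from Melphalan ran from -0.90 to 0.50 for Ebp and from -0.48 to 0.55 for Sc5d. Both upper ends lay below the estimate for Acss2, 0.88, but this leaves out the error of that estimate, and the difference between these genes was not tested. Tm7sf2, a sterol reductase, averaged 9.18, 7.65, 10.6 and 10.8 FPKM in the same order, and its exons overlap those of Vps51 on its own strand.

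In fatty acid synthesis, the median log2 change of the 7 genes in MSC+Mel against Melphalan was 1.30, the highest of the 5 steps. Of the 7, 6 (85.7%) stood at an unadjusted p under 0.05, against 22.2% of all genes. Acaca, the acetyl-CoA carboxylase that commits carbon to fatty acids, averaged 2.51 ± 1.13 FPKM in Control, 1.92 ± 0.493 in Melphalan, 3.79 ± 2.796 in Mel+MSC and 7.78 ± 2.05 in MSC+Mel, with a difference of MSC+Mel from Melphalan of 1.57 (95% interval 0.75 to 2.40, adjusted p = 0.0630). Acly, which splits citrate into cytosolic acetyl-CoA, averaged 10.2 ± 2.28, 9.13 ± 6.68, 7.89 ± 2.503 and 17.9 ± 4.67 FPKM in the same order. Its spread in Melphalan came from Melphalan 2, at 16.8 FPKM against 4.86 and 5.700. Elovl6, a fatty acid elongase, averaged 31.7 ± 5.699, 16.6 ± 8.26, 39.8 ± 14.4 and 39.1 ± 1.14 FPKM, and all 3 Melphalan libraries lay below the other 9.

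Scd2, a stearoyl-CoA desaturase, stood at 23.3, 13.97 and 6.62 FPKM in Control, 4.35, 20.1 and 7.701 in Melphalan, 6.43, 25.3 and 22.6 in Mel+MSC and 43.96, 23.1 and 20.9 in MSC+Mel. Melphalan 2, the library with the highest immune cell markers, stood apart in its group for Scd2 as for Acly, and the part of immune cells in these values was not tested. The closely related gene Scd1 measured 26.1, 24.5 and 9.37 FPKM in the Control libraries, 58.1, 37.2 and 6.27 in Melphalan, 11.4, 12.3 and 60.2 in Mel+MSC and 71.8, 38.05 and 118 in MSC+Mel. MSC+Mel overlapped Melphalan and Mel+MSC but not Control, and the counting may have divided reads between the 2 genes.

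Me1, the malic enzyme that supplies NADPH, had another pattern from the rest of its block. It stood at 8.704, 7.69 and 9.29 FPKM in Control, 26.7, 12.2 and 30.99 in Melphalan, 27.5, 21.1 and 25.03 in Mel+MSC and 19.9, 35.8 and 33.8 in MSC+Mel. All 9 libraries that received melphalan lay above the 3 Control libraries. The log2 difference from Control was 1.25 (95% interval 0.56 to 1.94, adjusted p = 0.0791) in Melphalan. For Mel+MSC it was 1.41 (95% interval 0.72 to 2.11, adjusted p = 0.586). For MSC+Mel it was 1.65 (95% interval 0.96 to 2.34, adjusted p = 0.0744). None of the 3 was called in the fit on all 12 libraries with FPKM as deposited and equal weights. In Melphalan it was called without Melphalan 2, which had the lowest value of its group, and in MSC+Mel without Melphalan 2, with quantile normalization and in the fit on 6 libraries. Library weights by either estimator also called both, and those by the default estimator called the difference of Mel+MSC too. The default weights called 3543 of all genes in Melphalan, 226 in Mel+MSC and 952 in MSC+Mel, each against Control. The gene-by-gene weights called 1520 in Melphalan and 860 in MSC+Mel.

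**Figure D3:**
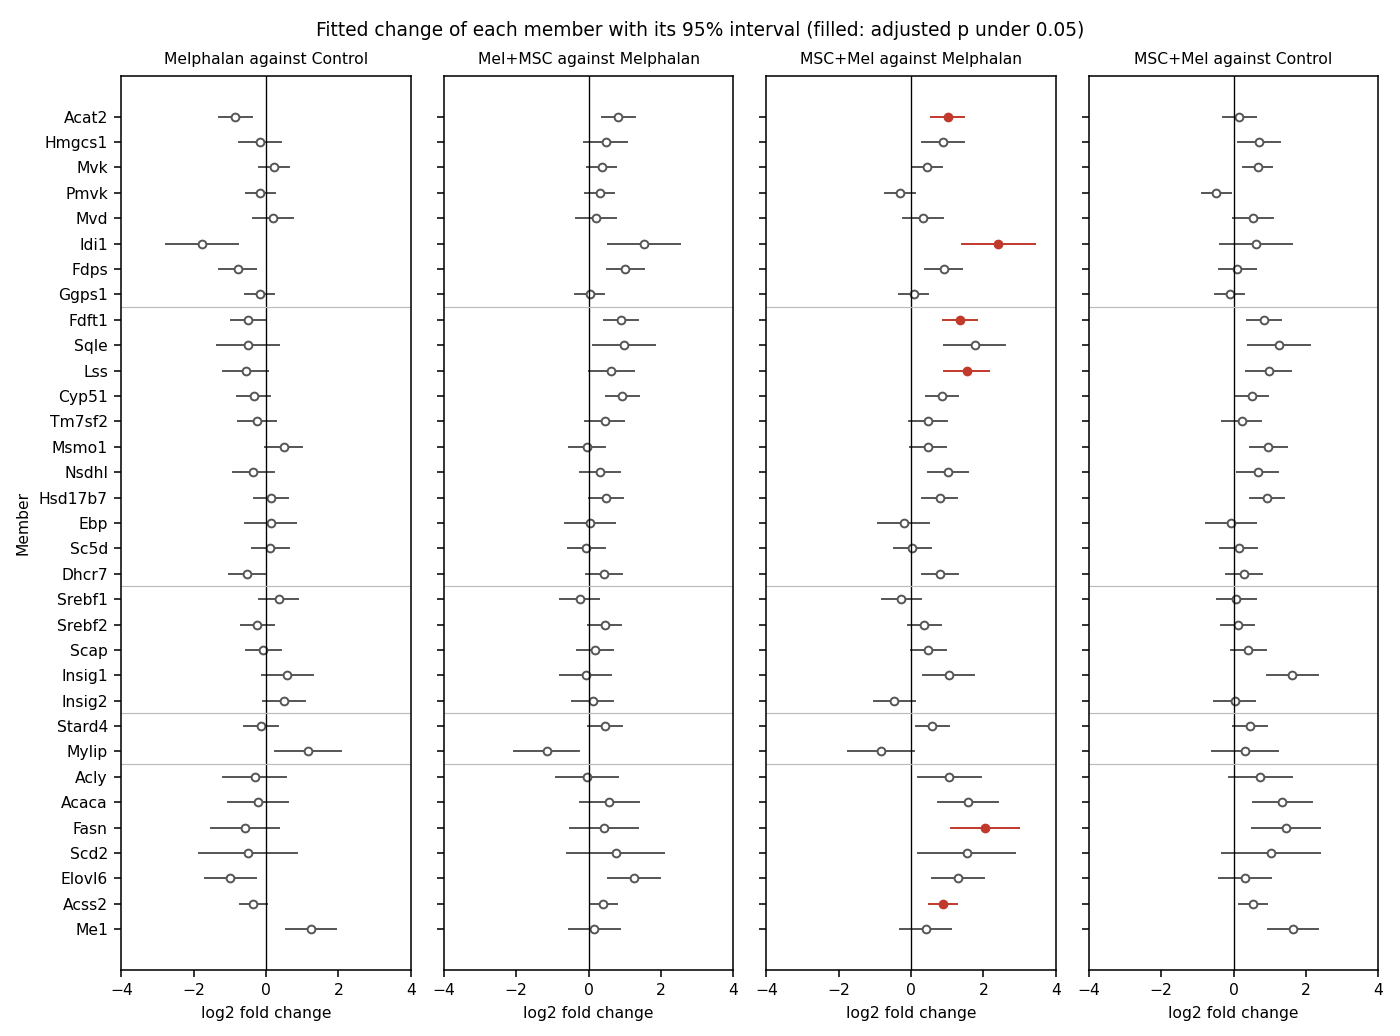
Fitted log2 change of each of the 33 genes (points) with its 95% interval (lines) in 4 comparisons; filled red points are called at an adjusted p under 0.05 and open points are not. The 6 filled points all lie in MSC+Mel against Melphalan, where 28 of 33 points lie above 0.

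In the fit on all 12 libraries weighted equally, limma called no regulator of SREBP in any of the 6 comparisons. With library weights by either estimator it called Srebf2, Scap and Insig1 higher in MSC+Mel against Melphalan. With the default weights it also called Insig2 lower there. There the default and gene-by-gene weights called 5417 and 3148 of the 12847 genes. The default estimator, which stopped before convergence, also called at least 1 regulator in each other comparison except Mel+MSC against Control. In those it called 952 to 5051 of all genes. Srebf1, which encodes SREBP-1, stood at 29.4, 14.8 and 21.5 FPKM in Control, 32.6, 24.3 and 25.3 in Melphalan, 23.9, 18.2 and 26.7 in Mel+MSC and 19.2, 25.3 and 22.8 in MSC+Mel. All 4 groups overlapped. Srebf2, which encodes SREBP-2, stood at 27.7, 23.1 and 26.3 FPKM in Control, 17.5, 29.5 and 18.9 in Melphalan, 24.4, 30.6 and 33.99 in Mel+MSC and 30.8, 26.6 and 25.9 in MSC+Mel. Here too the groups overlapped, and the interval of its MSC+Mel difference from Melphalan was -0.10 to 0.82 on the log2 scale. The table gives 1 value per gene, so the SREBP-1a and SREBP-1c transcripts of Srebf1 were not separated. Scap, the escort of SREBP, averaged 8.04 ± 1.62, 7.72 ± 2.28, 8.68 ± 1.27 and 10.9 ± 1.34 FPKM in Control, Melphalan, Mel+MSC and MSC+Mel.

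Insig1, a sterol-sensing anchor that is itself a well-known SREBP target, stood at 16.7, 8.68 and 12.8 FPKM in Control, 29.5, 12.4 and 18.6 in Melphalan, 14.9, 14.8 and 25.9 in Mel+MSC and 41.9, 39.4 and 39.03 in MSC+Mel. The 3 MSC+Mel libraries were close together and above the other 9. Its difference of MSC+Mel from Control was 1.62 (95% interval 0.92 to 2.33, adjusted p = 0.0821), from Mel+MSC 1.12 (95% interval 0.42 to 1.82, adjusted p = 0.274) and from Melphalan 1.04 (95% interval 0.33 to 1.74, adjusted p = 0.109). It was called in none of them in the fit on all 12 libraries weighted equally. With library weights by either estimator it was called in all 3, and against Control it was also called without Melphalan 1 and in the fit on 6 libraries. The default and gene-by-gene weights called 952 and 860 of all genes against Control. They called 5051 and 3781 against Mel+MSC, and 5417 and 3148 against Melphalan. Insig2, the second anchor, which is not under the same control, averaged 20.4 ± 5.44, 29.00 ± 5.91, 31.7 ± 8.67 and 20.7 ± 4.54 FPKM, with the order of Insig1 not repeated. Library weights by either estimator called Insig2 lower in MSC+Mel against Mel+MSC, where they called 5051 and 3781 of all genes.

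Of the remaining pair, Stard4, a carrier of sterol between membranes, averaged 46.2 ± 9.097 FPKM in Control, 41.7 ± 7.51 in Melphalan, 57.7 ± 11.9 in Mel+MSC and 62.6 ± 3.04 in MSC+Mel, and MSC+Mel lay above Control and Melphalan. Mylip, a ubiquitin ligase and a target of the sterol receptor LXR, stood at 2.13, 11.05 and 4.12 FPKM in Melphalan and between 1.11 and 2.97 FPKM in the other 9 libraries. Its highest value was in Melphalan 2, the library with immune cell markers at 836 FPKM. The log2 difference of Melphalan from Control was 1.15 (95% interval 0.24 to 2.06, adjusted p = 0.175).

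**Figure D4:**
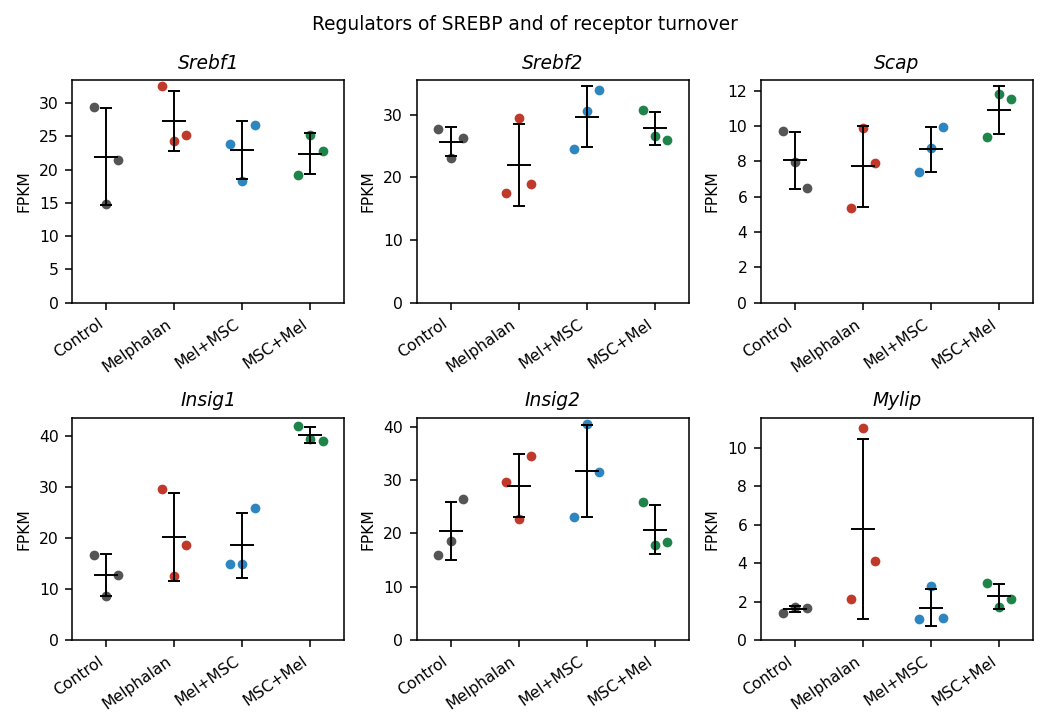
FPKM of Srebf1, Srebf2, Scap, Insig1, Insig2 and Mylip by group; each point is 1 library and the bar gives the mean and SD of 3. Insig1 stands at 39.03 to 41.9 FPKM in the 3 MSC+Mel libraries and at most at 29.5 FPKM elsewhere, the groups overlap for Srebf1 and Srebf2, and Mylip is highest in Melphalan 2.

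Melphalan against Control asks what the drug alone went with. None of the 33 genes was called by limma, against 1.33% of all genes, and 8 (24.2%) stood at an unadjusted p under 0.05, against 18.2% of all genes. With the replicate number as a block, 73 of all genes were called in place of 171, and still none of the 33. Of these 8, 6 were lower in Melphalan and 2, Me1 and Mylip, were higher. The median log2 change was -0.23 over the 33 genes and 0.03 over all genes. Every Melphalan library lay below every Control library for 6 genes, Acat2, Idi1, Fdps, Fdft1, Elovl6 and Acss2, as it did for 10.7% of all genes. Leaving out Control 3 raised the count of called genes to 2, Acat2 and Idi1, both lower in Melphalan. It was 1 without Melphalan 2 (Me1, higher) and 1 without Mel+MSC 3 (Idi1, lower).

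For Mel+MSC against Melphalan, none of the 33 genes was called by limma, against 0.156% of all genes, and 10 (30.3%) stood at an unadjusted p under 0.05, against 13.6% of all genes. Of the 10, 9 were higher in Mel+MSC and 1, Mylip, was lower. The smallest p-values were those of Cyp51, with a log2 difference of 0.94 (95% interval 0.49 to 1.39, adjusted p = 0.116), Fdps, with 1.01 (95% interval 0.50 to 1.53, adjusted p = 0.128), and Fdft1, with 0.89 (95% interval 0.43 to 1.36, adjusted p = 0.133). Every Mel+MSC library lay above every Melphalan library for 7 genes, as for 8.37% of all genes. The median log2 change was 0.42 over the 33 genes. Within Mel+MSC, the first library stood lower than the other pair for several sterol genes: Idi1 was at 11.4 FPKM there against 24.1 and 43.5, and Sqle at 7.22 against 20.5 and 17.5.

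MSC+Mel against Mel+MSC compares the groups that received both agents. None of the 33 genes was called by limma, against 0.00778% of all genes, and 10 (30.3%) stood at an unadjusted p under 0.05, against 12.2% of all genes, 8 of them higher in MSC+Mel and 2 lower. Every MSC+Mel library lay above every Mel+MSC library for 8 genes, as for 11.7% of all genes. The smallest p-value was that of Fasn, with a log2 difference of 1.62 (95% interval 0.68 to 2.57, adjusted p = 0.246), followed by Insig1 and Pmvk, given above. The median log2 difference was 0.30 over the 33 genes. Without Mel+MSC 3 the count rose to 2, Pmvk lower and Acaca higher. MSC+Mel and Mel+MSC were each also set against the same Melphalan libraries, so their differences from Melphalan are not independent of each other.

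Against Control, limma called none of the 33 genes in Mel+MSC, where 0% of all genes were called, and none in MSC+Mel, where 0.171% were. At an unadjusted p under 0.05 stood 5 genes (15.2%) in Mel+MSC, against 5.4% of all genes, and 15 (45.5%) in MSC+Mel, against 11.7% of all genes, 14 of them higher. The smallest p-values in Mel+MSC were those of Me1, Mvk, with a log2 difference of 0.58 (95% interval 0.17 to 0.98, adjusted p = 0.777), and Cyp51, with 0.59 (95% interval 0.14 to 1.04, adjusted p = 0.811). In MSC+Mel they were those of Me1, Insig1 and Hsd17b7. Every MSC+Mel library lay above every Control library for 19 genes, as for 13.4% of all genes, and below for 1, Pmvk. Median log2 differences from Control over the 33 genes were 0.19 in Mel+MSC and 0.53 in MSC+Mel. The count of called genes in MSC+Mel was 1 without Melphalan 1 (Insig1) and 1 without Melphalan 2 (Me1).

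The wider pathway was read from a list of 24 other genes, of which 23 were tested. In MSC+Mel against Melphalan 4 rose and none fell, where 0.817% of all genes were called higher, and the median log2 change of the 23 was 0.45. Of these, Fads2 and Aacs are described here. Fads2, a desaturase of polyunsaturated fatty acids, stood at 34.3, 27.6 and 13.2 FPKM in Control, 4.62, 7.18 and 6.15 in Melphalan, 15.9, 18.4 and 29.8 in Mel+MSC and 29.8, 26.2 and 28.03 in MSC+Mel. Melphalan lay below the other 9 libraries. It fell in Melphalan against Control, with a log2 change of -1.82 (SE 0.32, adjusted p = 0.0239), and rose in MSC+Mel against Melphalan by 2.07 (SE 0.32, adjusted p = 0.0244). Aacs, which activates acetoacetate for lipid synthesis, stood at 3.64, 4.32 and 2.81 FPKM in Melphalan and 10.1, 7.57 and 8.36 FPKM in MSC+Mel, and rose by 1.08 (SE 0.20, adjusted p = 0.0338). The calls of Fads2 and Aacs in MSC+Mel against Melphalan were each lost without any 1 of the MSC+Mel libraries and without Melphalan 1 or 3, as were those of the 6 genes above. Counting every alternative run, 7 of 21 lost the call of Fads2 there and 9 of 21 lost that of Aacs. The fall of Fads2 was lost without Control 1 or 2 and without Melphalan 1 or 3, with adjusted p from 0.0588 to 0.127. It was also lost with the replicate number as a block (adjusted p = 0.0666), with no filter on low values (adjusted p = 0.0662) and in the fit on 6 libraries (adjusted p = 0.175).

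Markers of crypt cells and of enterocytes also differed between the groups. The 12 markers of crypt and cycling cells, a list chosen beside the pathway, summed to between 320.4 and 780.1 FPKM in Control, 129 and 178 in Melphalan, 377 and 483 in Mel+MSC, and 534 and 573 in MSC+Mel. In MSC+Mel against Melphalan 5 of the 12 rose and none fell, with a median log2 change of 1.61. Of all genes, 1.24% were called there and 0.817% were called higher. In Mel+MSC against Melphalan 3 rose, where 0.156% of all genes were called. In Melphalan against Control 6 of the 12 fell, where 1.33% of all genes were called. The 12 enterocyte markers summed to between 34281 and 71586 FPKM in Melphalan and 20695 and 24304 in MSC+Mel, with none called and 10 of 12 fitted lower in MSC+Mel. No crypt or enterocyte marker was at 0 in any library. Control 1 and Control 2 had the highest crypt marker sums (770.2 and 780.1 FPKM). Their mean log2(FPKM + 1) of the 33 genes was 3.92 and 3.66, below the 4.21 to 4.42 of the MSC+Mel libraries. The Melphalan libraries, with the lowest crypt marker sums, stood at 3.51 to 3.65. The part of cell composition in the pathway's differences was not tested.

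**Figure D5:**
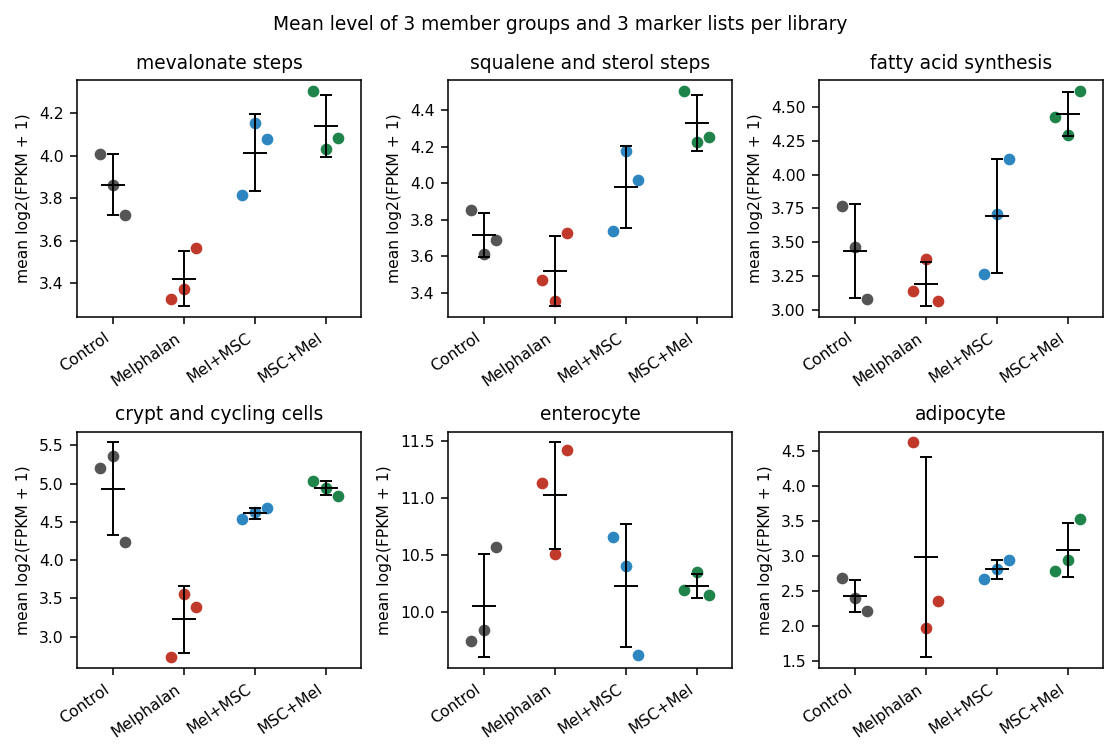
Mean log2(FPKM + 1) per library of 3 groups of pathway genes (top) and 3 lists of cell type markers (bottom), by group; each point is 1 library and the bar gives the mean and SD of 3. Axes differ between panels and do not start at 0. The group mean of each pathway panel is highest in MSC+Mel, and MSC+Mel and Mel+MSC overlap in the mevalonate panel. The crypt and cycling markers are lowest in Melphalan and overlap between Control and MSC+Mel. The adipocyte point far above the others is Melphalan 1.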

How the data were processed

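RNA sequencing of mouse small intestine was used as deposited, 12 libraries in 4 groups of 3. Per the labels' protocols, total RNA was prepared into TruSeq libraries; neither strand nor read length is stated. STAR, Cufflinks and Cuffnorm, with the builds mm10 and GRCm38, are listed per the submitters' processing notes, without their roles; versions are not given in the sources used here. Expression is given as deposited FPKM, one value for each gene in each library, and every sample column was matched (0 left over). Read counts were not used here. Low FPKM values lie on steps, and in the 10 libraries with a clear step 1 fragment was worth 0.883 to 1.41 times that in Control 1, which gives relative depth only. No interval of counting error was computed, and precision rests on the spread between libraries.

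The log2 of FPKM + 1 was fitted for the 12847 genes that reached 1 FPKM in no fewer than 3 libraries, with limma 3.58.1 in R 4.3.3 (moderated t, intensity trend, 1 mean per group, 8 residual degrees of freedom). P-values were adjusted by Benjamini-Hochberg within each of 6 comparisons over all genes tested. Intervals are 95% intervals of the same fit. The script was tested on simulated data. The 33 genes and all lists were chosen with earlier results of these data known; lists are described by counts and medians, with no test. Values in all libraries are given for genes called, for the 3 smallest p in each comparison and for a fixed set of 7 (Srebf1, Srebf2, Insig1, Hmgcs1, Sqle, Fasn, Scd2); other genes of the pathway were named where called, except for some results that are not reported here. Values of the other genes, of marker lists and of overlapping genes were added beside results they touch.

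Same-numbered libraries were checked for pairing by correlating their deviations from the group means. All 3 numbers exceeded 0.1 in 1 of 6 comparisons, Melphalan against Control (0.124, 0.233 and 0.184), and over all 18 pairs the correlation ran from -0.369 to 0.396. Coordinates, exon overlaps and strands are from GENCODE M21 on GRCm38, which holds 99.5% of the table's identifiers; exons of 14 of the 33 genes overlap another gene, 7 of them a protein-coding one. Promoter windows are from RefSeq on GRCm38.p6. Tried in turn were a smaller pseudocount (0.1), testing every gene, keeping genes that average 5 FPKM, quantile normalization, median-of-ratios rescaling, a 6-library fit, library weights, the replicate block and leaving out each library. Figures were drawn with matplotlib 3.10.9 in Python 3.11.15.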

Additional observations from a re-analysis of the deposited data

How the results depend on the processing

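Every median change of the 33 genes kept its sign in all alternatives run, as did the 27 changes of single genes of the 33 that were refitted under them. Counts of called genes were less steady. Of the 6 called in MSC+Mel against Melphalan, 1 was left with no filter on low values, which tests more genes, and 0 with the replicate block, in which 20 of all genes were called. The numbers do not pair those groups, and every library correlated best with its own number in 1 of 6 comparisons. The replicate block changed no other count of the 33. Leaving out 1 library gave 0 to 14 calls there, 0 to 2 in Melphalan against Control and in MSC+Mel against Mel+MSC, 0 to 1 in MSC+Mel against Control, and 0 in both other comparisons; medians then ranged from 0.66 to 0.90 in MSC+Mel against Melphalan. In MSC+Mel against Control, 1 gene was called with quantile normalization and 2 in the fit on 6 libraries. Library weights gave more calls: 9 in Melphalan against Control, 12 in Mel+MSC against Melphalan, 24 in MSC+Mel against Melphalan (median 0.6066), 14 in MSC+Mel against Mel+MSC, 3 in Mel+MSC against Control and 11 in MSC+Mel against Control, beside 3543, 2282, 5417, 5051, 226 and 952 of all genes. As that estimator stopped before convergence, gene-by-gene weights were added after seeing the data and gave 4, 0, 20, 12, 0 and 10 in the same order, beside 1520, 63, 3148, 3781, 13 and 860 of all genes. The same alternatives for the other genes of the pathway were also added after seeing the data. The cause of these shifts was not tested. Read depth is unknown, which limits genes near 1 FPKM, such as Lss, most.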

Other observations

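Genes of the oxysterol receptor LXR and its targets formed another list, of which 6 of 7 genes were tested. In Melphalan against Control all 6 were fitted higher, with a median log2 change of 0.46. There limma called 0, with 3 (50%) at an unadjusted p under 0.05, against 18.2% of all genes. In MSC+Mel against Melphalan all 6 were fitted lower, with a median of -0.31. There limma called 0, with 1 (16.7%) at an unadjusted p under 0.05, against 22.2% of all genes. Abca1, the cholesterol exporter, measured 7.65, 7.01 and 8.07 FPKM in the Control libraries against 14.4, 15.8 and 14.2 FPKM in those of Melphalan, without overlap (adjusted p = 0.0922). The comparisons share the Melphalan libraries.

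Of 14 clock genes 13 were tested, and limma called 0 in any of the 6 comparisons. At an unadjusted p under 0.05 stood 6 (46.2%) in Melphalan against Control, where 18.2% of all genes did. In Mel+MSC against Melphalan 5 (38.5%) did, against 13.6% of all genes, and in MSC+Mel against Melphalan 3 (23.1%), against 22.2%. For MSC+Mel against Mel+MSC the count was 7 (53.8%, against 12.2%). Against Control it was 2 in Mel+MSC (15.4%, against 5.4%) and 7 in MSC+Mel (53.8%, against 11.7%). The clock output gene Dbp differed within groups and between them, at 0.772, 0.505 and 0.780 FPKM in the Control libraries, 7.72, 8.51 and 6.85 in Melphalan, 4.25, 1.59 and 0.423 in Mel+MSC and 15.99, 25.4 and 3.78 in MSC+Mel. The labels give no hour of collection. Of the adipocyte markers 6 of 7 were tested and of the immune cell markers 9 of 9. In MSC+Mel against Melphalan limma called 0 of either list, where 1.24% of all genes were called. At an unadjusted p under 0.05 stood 0, against 22.2% of all genes. Within Melphalan the mean log2(FPKM + 1) had an SD of 1.43 for the adipocyte list and 1.8 for the immune list. With so wide a spread these zeros do not show that the lists stood level.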
